A study of Mus musculus with 6 samples.

Results

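The 9 genes described here encode receptors for the Fc part of antibodies and the chains through which such receptors signal: Fcgr1, Fcgr2b, Fcgr3, Fcgr4, Fcgrt, Fcer1g, Tyrobp, Hcst and Syk. They were taken by symbol from the 23337 genes of the count table, and all 9 were found. RNA was sequenced from mouse granulocyte-monocyte progenitors of C57BL6 bone marrow that carry ER-HOXA9, the leukaemia-associated transcription factor HOXA9 fused to the hormone-binding domain of the oestrogen receptor. Such cells stay immature while oestradiol keeps the fusion protein active, and 0.5 µM beta-estradiol was in the medium of all 3 groups, with stem cell factor, 4 mM glutamine and heat-inactivated serum at 10%. One group was untreated and collected at day 0, one was kept for 3 days with the solvent DMSO (vehicle), and one was kept for 3 days with 200 nM GSK-LSD1, 5 µM mercaptopurine and 5 µM cerulenin together (drugs). GSK-LSD1 inhibits the histone demethylase LSD1, mercaptopurine is a purine antimetabolite and cerulenin inhibits fatty acid synthase; since they were given only together, the effects of the single compounds cannot be told apart. Each group had 2 libraries, called biological replicates in the labels, and the sources used here do not say whether the cells descend from 1 clone.

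Fc receptors let myeloid cells read antibody-coated particles. The activating receptors Fcgr1 (CD64), Fcgr3 (CD16) and Fcgr4 bind IgG but have no signalling tail of their own; they rely on the common gamma chain Fcer1g, whose tail holds an ITAM, a sequence with a pair of spaced tyrosines. Once a Src-family kinase phosphorylates both tyrosines, the kinase Syk docks there and starts phagocytosis, an oxidative burst or cytokine release. Tyrobp (DAP12) is a related ITAM chain that serves other myeloid and NK receptors, and Hcst (DAP10) instead carries a tyrosine motif that recruits phosphoinositide 3-kinase. Fcgr2b is the inhibitory IgG receptor: its tail carries an ITIM, a single-tyrosine motif that recruits phosphatases, mainly SHIP1 (Inpp5d). Fcgrt is the heavy chain of the neonatal Fc receptor, which pairs with beta-2-microglobulin and returns IgG and albumin from endosomes to the cell surface.

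The signalling motifs distinguish the activating chains from the inhibitory receptor, and are shown as coding sequence from the GENCODE M21 transcripts (GRCm38, the assembly also called mm10), 5′ to 3′, with the tyrosine codons in capitals.
Fcer1g ITAM: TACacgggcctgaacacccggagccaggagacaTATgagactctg
Tyrobp ITAM: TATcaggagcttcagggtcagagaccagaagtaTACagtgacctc
Hcst phosphoinositide 3-kinase motif: TACatcaacatg
Fcgr2b ITIM: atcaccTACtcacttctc
The Fcer1g motif covers codons 65 to 79 of 86, is split between coding parts of exons 4 and 5 of 5, and lies within chr1:171229889-171230072 on the minus strand. The Tyrobp motif covers codons 92 to 106 of 114, is likewise split between exons 4 and 5, and lies within chr7:30415670-30417382 on the plus strand. The Hcst motif is at codons 72 to 75 of 79 in exon 4 (chr7:30417821-30417832, minus strand). The Fcgr2b motif is at codons 270 to 275 of 293 in exon 7 of 7 (chr1:170961071-170961088, minus strand). The counts are per gene, so transcripts with and without a given exon cannot be told apart.

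Fcgr2b and Fcgr3, the inhibitory and the activating low-affinity receptor, are close copies in their extracellular part, which bears on how reads can be assigned. Over an aligned block of 489 coding bases, 472 were identical (96.5%), and the longest identical run was 129 bases. The 90-base stretch of this block with the most differences is shown for both genes, with the 7 differing bases in capitals; it lies at chr1:170968132-170968221 for Fcgr2b and at chr1:171057843-171057932 for Fcgr3, both on the minus strand.
Fcgr2b: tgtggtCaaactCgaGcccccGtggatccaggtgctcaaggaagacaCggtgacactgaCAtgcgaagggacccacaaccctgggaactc
Fcgr3: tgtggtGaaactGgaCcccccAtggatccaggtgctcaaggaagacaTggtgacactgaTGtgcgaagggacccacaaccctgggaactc
Of all 50-base windows in the transcripts of Fcgr3, 10.2% also occurred in a transcript of Fcgr2b, and 4.48% of those of Fcgr2b occurred in Fcgr3; with 100-base windows the shares were 2.7% and 1.14%. The sources used here do not say how reads that fit both genes were counted, and the part of either count that such reads make up is uncertain. No other pair among the 9 genes shared a window of 30 bases.

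The libraries held 11305666 to 16948697 counts each, of which the ribosomal RNA gene Rn45s took 14.6 to 24.6%. Levels are given as CPM, counts per 1000000 counts of a library, on library sizes scaled by edgeR's TMM method, and genes were compared with each other only as CPM per kilobase of the deposited gene length. A gene was called higher or lower where its adjusted p from edgeR's quasi-likelihood test, with Benjamini-Hochberg adjustment over 11283 tested genes, was under 0.05; errors of log2 changes are standard errors (SE), and errors of levels are SD with n = 2. All 9 progenitor markers checked (among them Kit, Cd34, Flt3 and Mpo) were present. Their summed level was 7700 to 8030 CPM at day 0, 8740 to 8990 CPM with vehicle and 11000 to 11600 CPM with drugs. Mpo was its largest part, at 3490 and 4030 CPM at day 0, 4650 and 4650 with vehicle and 6520 and 6950 with drugs. In drugs against vehicle 3 of the 9 markers were called higher (Kit, Flt3 and Mpo), 2 lower (Ctsg and Cebpa) and 4 were not called. Of all tested genes, 18.1% were called higher and 13.8% lower in that comparison. The day 0 libraries differed from each other more than the drug libraries did (chi-square per degree of freedom between replicates 7.7 at day 0, 4.87 in vehicle and 1.83 with drugs, Rn45s left out).

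At day 3, 6 of the 9 genes were higher with the drugs than with vehicle, 1 was lower and 2 did not pass the test. Over all tested genes, 18.1% were called higher and 13.8% lower. The genes that rose were Fcgr2b, Fcgr3, Fcgr4, Fcgrt, Tyrobp and Hcst; Syk fell, and Fcgr1 and Fcer1g were not called. All 9 were tested, but Fcgr4 and Fcgrt passed the low-count filter only through the drug libraries, so they had to differ; of the other 7 genes, 4 rose, 1 fell and 2 were not called. In 8 of the 9 genes both drug libraries were above both vehicle libraries, and in 1 both were below. Over all tested genes the shares were 35.1% and 33.7%. Fcgr4 and Fcgrt, which had to differ because of the filter, are among the 8. In bulk RNA, a change in the number of cells that make a transcript and a change in the transcript per cell cannot be told apart.

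**Figure D1:**
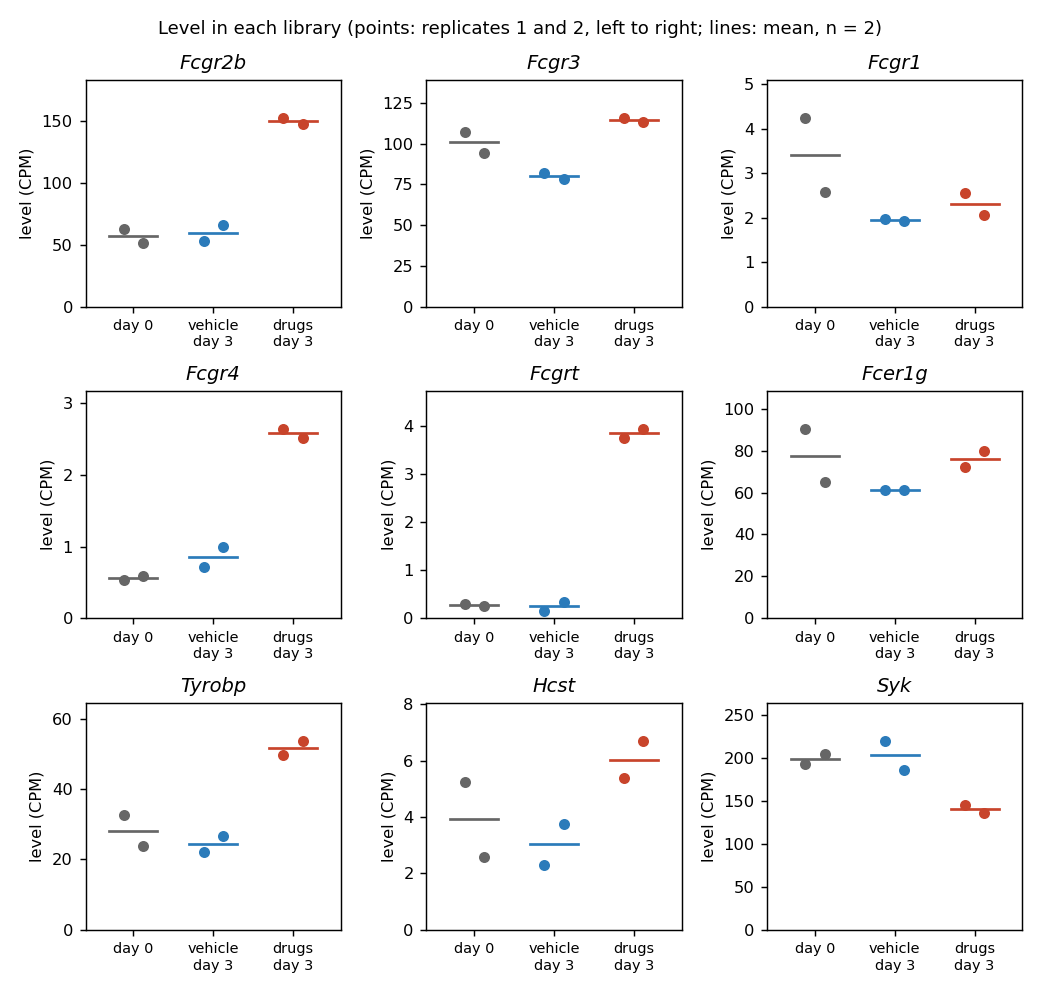
Level of each gene in CPM (linear axes from 0) in the 6 libraries, with points for replicates 1 and 2 and lines for the group mean. The drug libraries of Fcgr2b, at 153 and 148 CPM, stand above all 4 others, and those of Syk, at 145 and 136 CPM, below all 4 others.

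Fcgr2b, the inhibitory receptor, measured 63.1 and 51.1 CPM in the day 0 libraries, 53.3 and 65.9 CPM in the vehicle libraries and 153 and 148 CPM in the drug libraries. Both drug libraries were more than 80 CPM above every other library, while day 0 and vehicle overlapped. The change from vehicle to drugs was a log2 of 1.34 ± 0.105 (SE), a fold of 2.53 (adjusted p = 8.17e-07, edgeR).

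Fcgr3, the main low-affinity activating receptor here by level, measured 107 and 94.3 CPM at day 0, 81.7 and 78.3 CPM with vehicle and 116 and 113 CPM with drugs. The drug libraries were above both vehicle libraries and, by a smaller margin, above both day 0 libraries. Its log2 change from vehicle to drugs was 0.52 ± 0.0767 (SE), a fold of 1.43 (adjusted p = 0.000217, edgeR).

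Fcgr1, the high-affinity receptor, was scarce: 4.25 and 2.58 CPM at day 0, 1.98 and 1.92 CPM with vehicle and 2.56 and 2.07 CPM with drugs. The drug libraries lay just above the vehicle libraries and below the day 0 libraries. The log2 difference of 0.23 ± 0.314 (SE) between drugs and vehicle did not pass the test (adjusted p = 0.615, edgeR), and at 23 to 71 counts per library a difference of this size was not detectable.

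Fcgr4, the other activating receptor, had 9 and 7 counts at day 0, 9 and 12 with vehicle and 33 and 39 with drugs, or 0.538 and 0.582, 0.711 and 1.0, and 2.64 and 2.52 CPM. The drug libraries were above all others. The log2 change from vehicle was 1.58 ± 0.314 (SE), a fold of 2.99 (adjusted p = 0.00205, edgeR). Fcgr4 passed the low-count filter only through the drug libraries and so had to differ, and this p-value is no independent support.

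Fcgrt, the neonatal receptor's heavy chain, had 5 and 3 counts at day 0, 2 and 4 with vehicle, and 47 and 61 with drugs. It was thus nearly absent from the 4 libraries without drugs and stood at 3.76 and 3.94 CPM with them. The ratio of drugs to vehicle was 15.8, with a 95% counting interval of 7.04 to 44.1 that covers counting error only. In the fit the log2 change was 3.93 ± 0.386 (SE), the largest among the 9 genes (adjusted p = 6.14e-06, edgeR). Because Fcgrt was tested only through its level in the drug libraries, it had to differ, and this p-value is no independent support. Its partner B2m, at 359 and 420 CPM with vehicle and 456 and 446 CPM with drugs, was not called (log2 0.21 ± 0.126, adjusted p = 0.226).

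The chains that couple receptors to Syk differed among themselves. Fcer1g, the common gamma chain, measured 90.3 and 64.9 CPM at day 0, 61.4 and 61.0 CPM with vehicle and 72.3 and 79.7 CPM with drugs. The drug libraries were above both vehicle libraries and between the day 0 libraries. Its log2 difference from vehicle of 0.31 ± 0.121 (SE) did not pass the test (adjusted p = 0.0655, edgeR), but it did when either day 0 library was left out of the shared fit (adjusted p = 0.00337 and 0.0037), when only vehicle and drugs were fitted (0.00434) and without the low-count filter (0.00188).

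Tyrobp, the DAP12 chain, measured 32.7 and 23.8 CPM at day 0, 22.1 and 26.6 CPM with vehicle and 49.8 and 53.8 CPM with drugs. Both drug libraries were above all 4 others. The log2 change from vehicle was 1.09 ± 0.132 (SE), a fold of 2.13 (adjusted p = 4.09e-05, edgeR).

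Hcst, the DAP10 chain, measured 5.26 and 2.58 CPM at day 0, 2.29 and 3.76 CPM with vehicle and 5.37 and 6.71 CPM with drugs. The drug libraries were above both vehicle libraries, and the first of them was close to the higher day 0 library. The log2 change from vehicle was 1.01 ± 0.306 (SE; adjusted p = 0.0233, edgeR). This call was lost without vehicle replicate 1 (log2 0.69, adjusted p = 0.171), without drugs replicate 2 (0.83, adjusted p = 0.163), with library totals in place of TMM (0.98, adjusted p = 0.0687) and with the replicate number as a block (1.01, adjusted p = 0.0504).

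Syk, the kinase that docks on the ITAMs, moved the other way. It measured 193 and 205 CPM at day 0, 220 and 186 CPM with vehicle and 145 and 136 CPM with drugs. Both drug libraries were below all 4 others, and day 0 and vehicle overlapped. Its log2 change from vehicle was -0.53 ± 0.0867 (SE), a fold of 0.691 (adjusted p = 0.000485, edgeR).

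**Figure D2:**
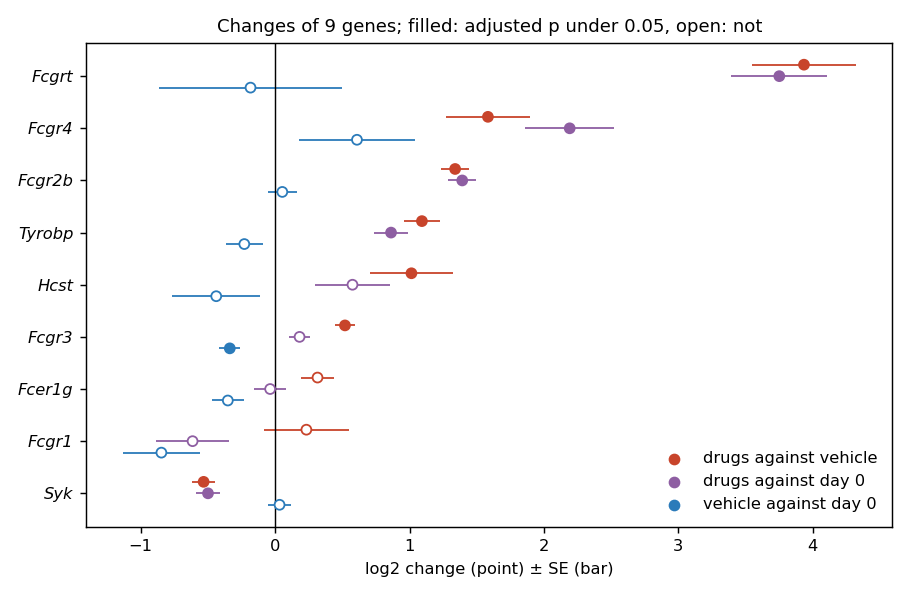
Log2 change of each gene (point) with its SE (bar) in the 3 comparisons, filled where the adjusted p was under 0.05. Drugs against vehicle ranges from -0.53 for Syk to 3.93 for Fcgrt, and in vehicle against day 0 Fcgr3 alone is filled.

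From day 0 to day 3 in vehicle, 1 of the 9 genes was called, Fcgr3, which was lower. Over all tested genes 3.75% were called higher and 3.99% lower in that comparison. No gene of the 9 was called higher by edgeR or by DESeq2, and 0 were higher at an unadjusted p under 0.05. Fcgr3 changed by a log2 of -0.34 ± 0.077 (SE; adjusted p = 0.0184, edgeR). That call rested on single libraries: it was lost without day 0 replicate 1 (log2 -0.24, adjusted p = 0.153), vehicle replicate 1 (-0.37, 0.061), vehicle replicate 2 (-0.29, 0.0738) or drugs replicate 1 (-0.34, 0.0529), with library totals (-0.22, 0.13) and with day 0 and vehicle fitted alone (-0.32, 0.0623).

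Fcgr1 (log2 -0.85 ± 0.288, adjusted p = 0.0918) and Fcer1g (-0.35 ± 0.121, adjusted p = 0.0956) were lower in both vehicle libraries than in both day 0 libraries without passing the test. Without day 0 replicate 2, 4 genes were called lower (Fcgr1, Fcgr3, Fcer1g and Tyrobp), and without day 0 replicate 1 none of the 9 was. Without the low-count filter, Fcgr1 (adjusted p = 0.0231) and Fcer1g (adjusted p = 0.00129) were called lower beside Fcgr3. In all, 3 of the 9 genes were lower in both vehicle libraries than in both at day 0 and 1 was higher, against 26.9% and 23.9% of all tested genes. The day 0 libraries themselves differed for these genes: the log2 ratio of replicate 1 to replicate 2 was 0.63 for Fcgr1, 0.47 for Fcer1g, 0.45 for Tyrobp and 0.91 for Hcst.

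Fcer1g, Tyrobp and Hcst have short transcripts (658, 566 and 442 bases in the deposited lengths), and short genes as a class also differed between replicates in these libraries. Over the 895 tested genes under 1000 bases, the median log2 ratio of replicate 1 to 2 was 0.28 at day 0, -0.21 in vehicle and -0.06 with drugs, against -0.01, 0.02 and 0.0031 for longer genes. The short genes' median change was -0.22 in vehicle against day 0 and -0.02 in drugs against vehicle, where 8.49% of them were called higher, below the 18.1% of all genes. Their part in the results for Fcer1g, Tyrobp and Hcst was not tested.

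Between day 0 and the drug libraries, 4 of the 9 genes were called higher and 1 lower. The shares over all tested genes were 22.7% higher and 21.2% lower. Without Fcgr4 and Fcgrt, which passed the filter only through the drug libraries, 2 of the other 7 genes were higher and 1 was lower, near those shares. This comparison shares its libraries with the other comparisons and is therefore no independent check of them. Fcgr2b (log2 1.39 ± 0.104, adjusted p = 4.25e-07), Fcgr4 (2.19 ± 0.331, adjusted p = 0.000201), Fcgrt (3.75 ± 0.358, adjusted p = 3.63e-06) and Tyrobp (0.86 ± 0.127, adjusted p = 0.000165) were higher, and Syk was lower (-0.50 ± 0.0865, adjusted p = 0.000564). Fcgr3 stood at 0.18 ± 0.075 (adjusted p = 0.0665), Hcst at 0.57 ± 0.279 (0.112), Fcgr1 at -0.61 ± 0.27 (0.0818) and Fcer1g at -0.04 ± 0.118 (0.818). Both drug libraries were above both day 0 libraries in 6 of the 9 genes and below them in 2, against 37.2% and 36.1% of all tested genes. Fcgr4 and Fcgrt, which had to differ because of the filter, are among the 6. Fcer1g changed its sign in this comparison with library totals (0.05), without day 0 replicate 1 (0.23) and without drugs replicate 1 (0.03). Leaving out a day 0 library also changed calls: without replicate 1, Fcgr3 (log2 0.28, adjusted p = 0.0144) and Hcst (1.24, 0.00597) were called higher, and without replicate 2, Fcgr1 (-0.90, 0.0115) and Fcer1g (-0.26, 0.0215) were called lower. Without the low-count filter Fcgr1 (adjusted p = 0.0452) and Hcst (adjusted p = 0.0098) passed, and with library totals Fcgr3 did (adjusted p = 0.0357).

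Per kilobase of gene length, the order of the 9 genes with vehicle was that of day 0 apart from Fcgr2b and Syk, which overlapped in both groups, and it was different with drugs. With vehicle, Fcer1g was highest at 93.0 ± 0.504 CPM per kilobase (SD, n = 2), followed by Fcgr3 at 59.1 ± 1.78. Tyrobp (43.0 ± 5.56), Fcgr2b (38.5 ± 5.77) and Syk (38.5 ± 4.63) came next, and each overlapped its neighbour in this order. Hcst stood at 6.85 ± 2.35, Fcgr1 at 0.753 ± 0.0145 and Fcgr4 at 0.686 ± 0.165, the last pair overlapping, and Fcgrt was lowest at 0.142 ± 0.0717.

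With drugs, Fcer1g remained highest at 116 ± 7.93 CPM per kilobase (SD, n = 2), but Fcgr2b was next at 97.4 ± 2.13, ahead of Tyrobp at 91.5 ± 4.92 and Fcgr3 at 84.7 ± 1.91. Syk (26.6 ± 1.33) was below all 4, and Hcst was at 13.7 ± 2.15. Fcgrt (2.22 ± 0.07) and Fcgr4 (2.06 ± 0.0714) now exceeded Fcgr1 (0.894 ± 0.136), and no neighbours in this order overlapped. At day 0 the order was Fcer1g (118 ± 27.3), Fcgr3 (74.5 ± 6.83), Tyrobp (49.9 ± 11.1), Syk (37.7 ± 1.62), Fcgr2b (36.9 ± 5.46), Hcst (8.87 ± 4.3), Fcgr1 (1.32 ± 0.456), Fcgr4 (0.448 ± 0.0245) and Fcgrt (0.158 ± 0.0203), in which Syk and Fcgr2b overlapped.

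Ratios between genes within a library do not depend on its scaling; those given here were chosen after the levels had been seen and are descriptions. The ratio of inhibitory Fcgr2b to activating Fcgr3, per kilobase, was 0.514 and 0.474 at day 0, 0.571 and 0.737 with vehicle and 1.15 and 1.15 with drugs. By this measure Fcgr2b went from below Fcgr3 in all 4 libraries without drugs to above it in both with drugs. Where the ratio stands against 1 depends on the deposited lengths and on how reads that fit both genes were counted, which is not known here. Its share of the summed level of the 4 IgG receptors was 33.4% and 31.8% at day 0, 35.9% and 41.8% with vehicle and 52.6% and 52.7% with drugs. The summed level of the 3 activating receptors was 61.7 and 59.4 CPM per kilobase with vehicle and 89.2 and 86.2 with drugs, so both sides of the ratio were higher with drugs.

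The ratio of Tyrobp to Fcer1g, the ITAM chains, was 0.42 and 0.426 at day 0, 0.419 and 0.507 with vehicle and 0.801 and 0.784 with drugs. Their sum per kilobase was 195 and 141 at day 0, 132 and 140 with vehicle and 198 and 216 with drugs. The ratio of Tyrobp to Syk was 1.58 and 1.08 at day 0, 0.936 and 1.33 with vehicle and 3.19 and 3.69 with drugs, so Tyrobp RNA per Syk RNA was above all other libraries in both drug libraries. The ratio of Fcer1g to Syk was 3.76 and 2.54, 2.23 and 2.63, and 3.98 and 4.71 in the same order. The ratio of Tyrobp to its neighbour Hcst overlapped between vehicle (7.54 and 5.52) and drugs (7.25 and 6.25).

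**Figure D3:**
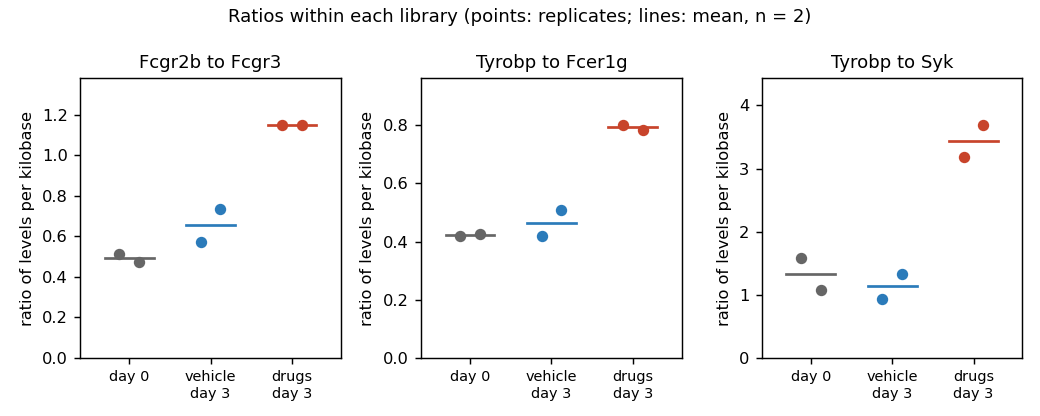
Ratios of levels per kilobase within each library (linear axes from 0; points are replicates, lines are means). The Fcgr2b to Fcgr3 ratio is under 0.75 in the 4 libraries without drugs and 1.15 in both with drugs, and the Tyrobp to Fcer1g and Tyrobp to Syk ratios are likewise highest in the drug libraries.

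Fcgr2b, Fcgr4, Fcgr3 and Fcer1g lie on one stretch of chromosome 1. By the deposited mm10 coordinates Fcgr2b is at chr1:170960559-170976071 (minus strand), Fcgr4 at chr1:171018926-171029761 (plus), Fcgr3 at chr1:171051169-171059403 (minus) and Fcer1g at chr1:171229572-171234349 (minus). The span from Fcgr2b to Fcer1g is 273.79 kb and holds 11 genes of the table, of which 9 were tested and 5 were called higher in drugs against vehicle, where 18.1% of all tested genes were; Fcgr4 and 1700009P17Rik among the 5 passed the filter only through the drug libraries. Of the 5 tested genes there that are not Fc genes, 2 were called higher, against 18.1% of all tested genes. Of these, 1700009P17Rik (log2 1.99 ± 0.524, adjusted p = 0.0115, edgeR) had to differ because of the filter. Leaving it aside, only Pcp4l1 was called (1.45 ± 0.118, adjusted p = 1.15e-06, edgeR). Sdhc (0.09 ± 0.0828), which lies between 1700009P17Rik and Pcp4l1, was not called. Tomm40l (0.19 ± 0.103) and Apoa2 (0.97 ± 0.461), which lie next to Fcer1g, were not called either.

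**Figure D4:**
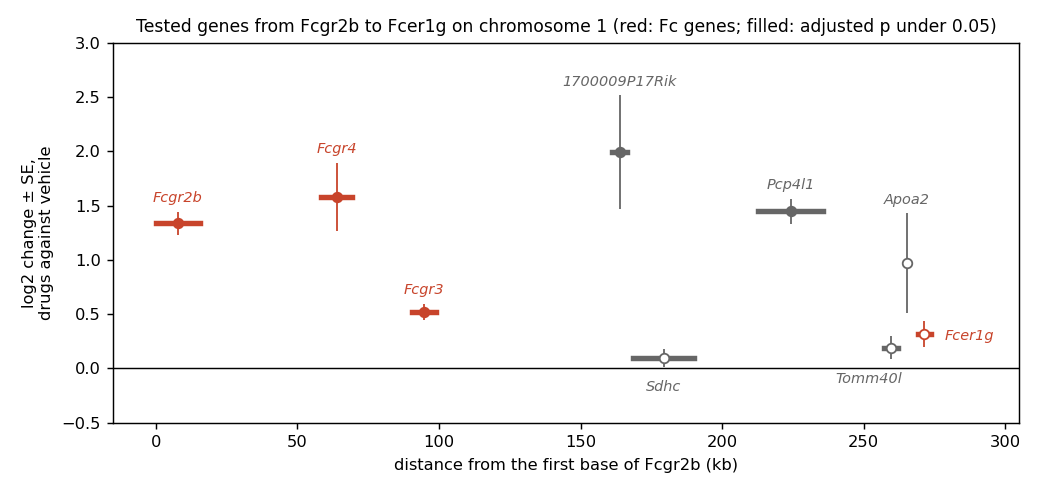
Log2 change with SE in drugs against vehicle for the 9 tested genes from Fcgr2b to Fcer1g, by distance in kb from the first base of Fcgr2b; thick lines span each gene. Fcgr2b (1.34) and Fcgr4 (1.58) are at one end and Fcer1g (0.31, open) is at the other, with Sdhc (0.09, open) between them.

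Tyrobp (chr7:30413788-30417579, plus strand) and Hcst (chr7:30417712-30419854, minus strand) converge tail to tail with 133 bases between them, and both rose. The sources used here do not say whether strand was used in counting, and reads running past either end cannot be assigned with certainty. The next genes outward with at least 1 CPM, Sdhaf1 (log2 -0.02 ± 0.167) and Nfkbid (-0.01 ± 0.17), were not called. Fcgrt (chr7:45092993-45103822, minus strand) has Rcn3 780 bases away on the same strand, which was called higher (1.13 ± 0.311, adjusted p = 0.0145). For Syk and Fcgr1 the nearest genes with at least 1 CPM are given, and genes below that level were passed over. Syk (chr13:52583437-52648792, plus strand) has Diras2 52601 bases away, which fell (-0.86 ± 0.126, adjusted p = 0.000194, edgeR). Auh, 186318 bases away on the other side, was not called (0.32 ± 0.134, adjusted p = 0.0898, edgeR). Fcgr1 (chr3:96282909-96293969, minus strand) has Hist2h2bb 12717 bases away, which was not called (-0.23 ± 0.207). Txnip, 263988 bases away on the other side, was called higher (0.33 ± 0.106, adjusted p = 0.0312, edgeR).

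Promoter windows, 250 bases before to 50 after the start site, were found in the RefSeq table (GRCm38.p6) for 8 of the 9 genes. Those of 4 receptors whose RNA rose are shown 5′ to 3′ on the gene's strand, with matches to 3 short motifs in capitals.
Fcgr2b (chr1:170976022-170976321, minus strand): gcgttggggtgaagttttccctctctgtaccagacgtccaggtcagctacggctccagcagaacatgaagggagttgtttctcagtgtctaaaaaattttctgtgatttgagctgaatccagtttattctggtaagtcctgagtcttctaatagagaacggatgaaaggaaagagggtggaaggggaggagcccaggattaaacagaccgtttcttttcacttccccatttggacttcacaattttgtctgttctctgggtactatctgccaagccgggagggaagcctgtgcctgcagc
Fcgr3 (chr1:171059354-171059653, minus strand): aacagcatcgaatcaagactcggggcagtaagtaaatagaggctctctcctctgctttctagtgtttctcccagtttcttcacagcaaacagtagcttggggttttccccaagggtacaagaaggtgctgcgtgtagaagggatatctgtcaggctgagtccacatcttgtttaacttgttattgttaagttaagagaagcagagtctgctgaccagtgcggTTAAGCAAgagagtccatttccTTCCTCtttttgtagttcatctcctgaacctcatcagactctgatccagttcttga
Fcgr4 (chr1:171018676-171018975, plus strand): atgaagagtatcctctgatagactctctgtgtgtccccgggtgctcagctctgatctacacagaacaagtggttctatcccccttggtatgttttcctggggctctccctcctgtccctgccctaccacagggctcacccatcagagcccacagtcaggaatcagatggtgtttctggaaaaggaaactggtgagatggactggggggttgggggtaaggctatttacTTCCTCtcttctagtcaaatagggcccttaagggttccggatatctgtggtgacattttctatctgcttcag
Fcgrt (chr7:45103773-45104072, minus strand): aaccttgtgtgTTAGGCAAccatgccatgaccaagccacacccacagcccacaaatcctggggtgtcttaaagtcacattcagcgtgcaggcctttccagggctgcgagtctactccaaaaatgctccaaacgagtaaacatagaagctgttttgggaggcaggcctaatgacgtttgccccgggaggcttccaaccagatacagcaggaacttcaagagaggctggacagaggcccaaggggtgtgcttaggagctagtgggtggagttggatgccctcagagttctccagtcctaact
The motifs searched on both strands were GAGGAA, the core bound by the myeloid Ets factor PU.1, TTGCNNAA, a C/EBP-type site, and AATCNNNGC, a GFI1-type site; no matches of different motifs overlapped. A gene was counted if any of its windows matched, while the shares over the table are of single windows. Fcgr3 and Syk had more than a single window, so the units are not alike, and not all windows of Fcgr3 are shown. GAGGAA was found at 4 of the 8 genes (Fcgr1, Fcgr3, Fcgr4 and Syk) and in 28.3% of 32851 promoter windows of the table. TTGCNNAA was found at Fcgr3 and Fcgrt (2 of 8, against 10.8% of all windows) and AATCNNNGC at Fcgr1 (1 of 8, against 10.3%). Syk had GAGGAA only in the window of a later start (chr13:52596632-52596931), and none in that of its deposited start (chr13:52583187-52583486). With that limit, genes that rose and a gene that fell (Syk) both carried GAGGAA. Fcgr2b carried none of the 3 in its window.

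Receptors that hand their signal to Tyrobp or Hcst were mostly higher with drugs. Of 17 listed genes 9 were tested, 8 of these rose in drugs against vehicle and Trem3 was not called (log2 0.26 ± 0.186, adjusted p = 0.32). Sirpb1a, Sirpb1b, Pilrb1 and Pilrb2 passed the low-count filter only through the drug libraries and so had to differ. Of the other 5 genes 4 rose, against 18.1% of all tested genes, and their median was 1.29, against 0.00075 over all tested genes. DESeq2 called 5 of the 9 higher. Clec5a, a lectin receptor that pairs with Tyrobp, went from 48.8 and 55.1 CPM with vehicle to 163 and 160 CPM with drugs (log2 1.64 ± 0.0788, adjusted p = 8.84e-09, edgeR). At day 0 it stood at 86.5 and 79.4 CPM, and it fell from day 0 to vehicle (-0.68 ± 0.0804, adjusted p = 0.00039, edgeR). From day 0 to drugs its log2 change was 0.96 ± 0.075. Cd300lb, an activating receptor of the CD300 family, went from 6.4 and 8.53 CPM with vehicle to 34.4 and 36.2 CPM with drugs (2.24 ± 0.136, adjusted p = 6.55e-08, edgeR).

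Sirpb1b, an activating relative of the inhibitory receptor Sirpa, had 0 and 1 counts with vehicle and 24 and 35 with drugs, a ratio of 51.9 with a 95% counting interval of 8.96 to 2080. Sirpb1a had 0 and 1 counts against 11 and 12, a ratio of 20.2 with an interval of 3.29 to 833; its call was lost with DESeq2 (adjusted p = 0.064) and without vehicle replicate 1 (adjusted p = 0.0535). Both belong to a family of near-identical copies, so their reads may be split between them.

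**Figure D5:**
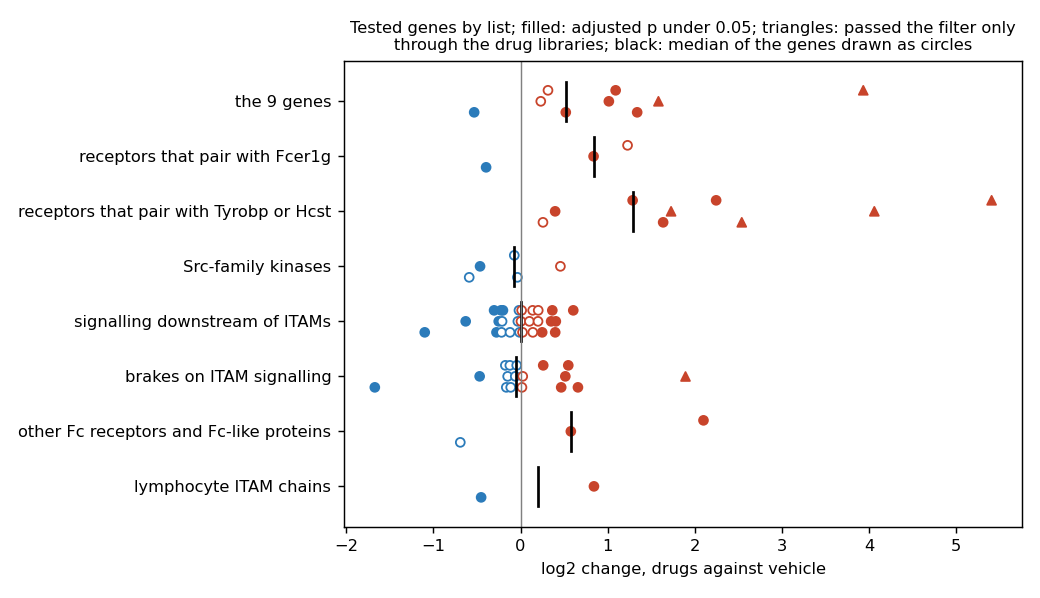
Log2 change in drugs against vehicle of each tested gene in 8 lists, filled where the adjusted p was under 0.05. Triangles mark genes that passed the low-count filter only through the drug libraries, and the black line is the median of the others: 1.29 for the genes pairing with Tyrobp or Hcst. The signalling genes downstream of ITAMs and the genes listed as brakes lie on both sides of 0.

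Receptors that pair with Fcer1g were fewer: of 14 listed genes 3 were tested, of which 1 rose and 1 fell. The shares over all tested genes were 18.1% higher and 13.8% lower. Clec4d, a C-type lectin for microbial glycolipids, rose from 15.2 and 17.5 to 28.5 and 29.8 CPM (log2 0.84 ± 0.112, adjusted p = 9.75e-05, edgeR). Its relative Clec4e (Mincle) was the most abundant and fell from 110 and 112 to 87.1 and 81.5 CPM (-0.40 ± 0.0775, adjusted p = 0.00188, edgeR), after a fall from 203 and 181 CPM at day 0 (-0.79 ± 0.0752, adjusted p = 5.95e-05). Among 13 other Fc receptors and Fc-like proteins 3 were tested and 2 rose: Fcrl1, an Fc receptor-like protein known from B cells (1.03 and 1.0 to 5.13 and 3.74 CPM, log2 2.10 ± 0.327, adjusted p = 0.00034), and Trim21, the cytosolic antibody receptor (11.2 and 12.5 to 19.0 and 16.5 CPM, 0.58 ± 0.135, adjusted p = 0.00588). The Trim21 call was lost without drugs replicate 1 (adjusted p = 0.0751).

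The ITAM chains of the B-cell receptor, Cd79a and Cd79b, were the only lymphocyte chains of 6 that were tested. Cd79a was higher with drugs (2.29 and 1.67 to 3.6 and 3.55 CPM, log2 0.84 ± 0.25, adjusted p = 0.0212, edgeR) and Cd79b lower (10.4 and 12.1 to 8.65 and 7.81 CPM, -0.45 ± 0.151, adjusted p = 0.0365, edgeR). DESeq2 called neither (adjusted p = 0.137 and 0.135). Both calls were lost without vehicle replicate 2 (adjusted p = 0.163 and 0.187), drugs replicate 1 (0.0989 and 0.0904) or drugs replicate 2 (0.0991 and 0.227).

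The Src-family kinases that phosphorylate ITAMs changed little by count: of 5 tested genes Fyn fell and 4 were not called, with a median of -0.07. Of all tested genes, 13.8% were called lower. Fyn went from 18.5 and 20.5 to 14.7 and 13.6 CPM (log2 -0.46 ± 0.127, adjusted p = 0.014, edgeR), which no longer passed when vehicle replicate 2 (adjusted p = 0.0702) or drugs replicate 2 (0.126) was left out. Lyn, the highest of them and named here after its values were seen, was at 90.2 and 90.0 CPM with vehicle and 87.8 and 87.9 CPM with drugs (-0.04 ± 0.0663, adjusted p = 0.716).

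Signalling proteins downstream of ITAMs moved both ways: of 27 tested genes (28 listed), 6 rose, 7 fell and 14 were not called, against 18.1% higher and 13.8% lower over all tested genes; the median was 0.0049. DESeq2 called 4 higher and 3 lower. Plcg2, the phospholipase that Syk activates in myeloid and B cells, fell from 415 and 385 to 260 and 257 CPM (log2 -0.63 ± 0.0793, adjusted p = 5.76e-05, edgeR). Vav3, a signalling protein phosphorylated downstream of ITAMs, rose from 216 and 212 to 329 and 322 CPM (0.60 ± 0.0811, adjusted p = 9.75e-05, edgeR). The scaffold Lat was at 16 and 22 counts with vehicle and 11 and 9 with drugs (-1.10 ± 0.383, adjusted p = 0.0435, edgeR), a call lost with DESeq2 (adjusted p = 0.167), with library totals (0.0521), with the replicate block (0.0687) and without any one of the vehicle or drug libraries (0.0525 to 0.285).

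Of 17 tested genes listed as brakes on ITAM signalling, 6 rose, 2 fell and 9 were not called. Among the 6 were the phosphatases Ptprc (log2 0.26 ± 0.0709, adjusted p = 0.0139, edgeR) and Ptprj (0.47 ± 0.13, adjusted p = 0.0154, edgeR). These phosphatases can also activate Src-family kinases, so the counts for this list are not counts of brakes alone. Of the 17 genes, Sla2 passed the filter only through the drug libraries. The other 16 genes had 5 that rose and 2 that fell, with a median of -0.05, against 18.1% higher and 13.8% lower over all tested genes. DESeq2 called 4 of the 17 higher and 2 lower. Dok2, an adaptor that restrains Ras signalling, fell from 10.8 and 13.0 to 3.84 and 3.61 CPM (log2 -1.67 ± 0.21, adjusted p = 5.61e-05, edgeR). Pag1, which anchors the inhibitory kinase Csk at the membrane, rose from 51.1 and 42.2 to 75.1 and 72.5 CPM (0.66 ± 0.0893, adjusted p = 0.000108, edgeR). Sla2 had 3 and 4 counts with vehicle and 18 and 12 with drugs, a ratio of 3.77 (95% counting interval 1.62 to 10.2); its call (adjusted p = 0.021, edgeR) was lost with DESeq2 (0.104) and without either vehicle library (0.137 and 0.0703) or drugs replicate 1 (0.2). Inpp5d, the SHIP1 phosphatase recruited by the Fcgr2b ITIM and named here after its values were seen, was at 263 and 241 CPM with vehicle and 230 and 225 CPM with drugs and was not called (-0.15 ± 0.0748, adjusted p = 0.153).

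From day 0 to vehicle, where 3.75% of all tested genes were called higher and 3.99% lower, 2 of 3 receptors that pair with Fcer1g and 1 of 9 that pair with Tyrobp or Hcst fell, and 1 of 27 downstream genes rose while 4 fell. DESeq2 called 1 of those 3 lower, 1 of those 9 lower and 2 of the 27 lower. In the other 5 lists none of 28 tested genes was called by edgeR or DESeq2, and 1 had an unadjusted p under 0.05 in edgeR. Between day 0 and drugs, 22.7% of all tested genes were called higher and 21.2% lower. In that comparison 7 of the 9 genes that pair with Tyrobp or Hcst were higher, and 3 of the 5 that did not pass the filter only through the drug libraries. Of the 3 that pair with Fcer1g, 1 rose and 1 fell. Among the downstream genes 6 rose and 9 fell, and among the genes listed as brakes 5 rose and 3 fell. In the same comparison 2 Src-family kinases and 1 lymphocyte chain fell, 1 of the other Fc receptors rose, and B2m was not called (log2 -0.06 ± 0.126, adjusted p = 0.724).

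Markers of other cells that carry these receptors were examined beside the 9 genes. The 7 NK-cell markers, whose cells use Fcgr3, Tyrobp and Hcst, were each under 1 CPM in all libraries and summed to 0.251 to 1.25 CPM, with Ncr1, Klre1 and Gzma at 0. The 6 T-cell markers summed to at most 0.516 CPM, with Cd3d, Cd3e, Cd3g and Cd4 at 0. The 5 B-cell markers, 2 of which are Cd79a and Cd79b, summed to 13.4 to 16.0 CPM at day 0, 13.1 to 14.1 with vehicle and 11.8 to 12.5 with drugs.

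The summed level of the 8 macrophage markers was 28.8 to 33.0 CPM at day 0, 20.5 to 24.4 CPM with vehicle and 77.0 to 77.4 CPM with drugs. Nearly all of it came from Emr1 (F4/80), at 20.6 and 17.6 CPM with vehicle and 67.8 and 66.5 CPM with drugs (log2 1.81 ± 0.101, adjusted p = 3.22e-08, edgeR), and Cd68 (1.59 ± 0.187, adjusted p = 3.06e-05, edgeR), while C1qa, C1qc, Mertk, Marco and Vsig4 were at 0 in all libraries. The 6 mast cell and basophil markers summed to 903 to 1090 CPM at day 0, 480 to 496 CPM with vehicle and 1130 to 1210 CPM with drugs, mostly from Cpa3 (1.32 ± 0.098, adjusted p = 4.87e-07, edgeR). Mcpt8, of the same list, was called lower with drugs (-0.30 ± 0.106, adjusted p = 0.0469, edgeR), and Ms4a2, the third tested, was not called (-0.69 ± 0.37, adjusted p = 0.176). Fcer1a, the IgE-binding chain that defines those cells and pairs with Fcer1g, was at 0 in all libraries. The 7 mature neutrophil markers, whose cells carry Fcgr4, summed to 1.14 to 3.95 CPM, with Camp and Retnlg at 0. The part of any such cells in the results for the 9 genes was not tested.

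For the 5 of the 9 genes with a mean of at least 10 CPM, the genes with the most similar course over the 6 libraries were found among 8403 genes, by the root mean square (RMS) difference of centred log2 CPM. Fcgr2b was followed most closely by Ceacam2 (RMS difference 0.0622) and Adamts10 (0.0651), and Tyrobp by Prdx1 (0.0639) and Lgals1 (0.0655). Fcgr3 was closest to Hacl1 (0.0494) and Plin3 (0.0527), Fcer1g to Urm1 (0.0518) and Commd4 (0.0534), and Syk to Usp54 (0.0293) and Helq (0.0296). Prdx1, for example, measured 117 and 132 CPM with vehicle and 245 and 271 CPM with drugs. None of the 10 nearest genes was another of the 9.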

How the data were processed

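RNA of 6 mouse libraries was measured. Per the labels' protocols, total RNA was extracted with Trizol and polyadenylated RNA enriched; per the submitters' processing notes, STAR 2.7.0f, deepTools 3.0.2 and build mm10 were used. The authors deposited raw read counts per gene with coordinates and lengths, 11305666 to 16948697 per library. Not given in the sources used here are the annotation release, the strand setting and the treatment of multiply mapped reads. Counts were tested with edgeR 4.0.16 (R 4.3.3; quasi-likelihood, TMM, filterByExpr at a minimum count of 10, all 3 groups in 1 fit with 3 residual degrees of freedom; log2 changes use a prior count of 0.125), and 13 alternatives were run, among them DESeq2 1.42.0. The script was tested on simulated data. The 9 genes, lists and naming rule were chosen with earlier results of these data known. The rule named all 9 genes, up to 4 called genes per list (the 2 smallest p-values and the 2 largest changes in drugs against vehicle), the 2 most similar genes and the nearest neighbours, of which 1 is not reported here. Symbols were matched for 102 of 104 other listed genes, Faim3 and Emr1 by their older names.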

Additional observations from a re-analysis of the deposited data

How the results depend on the processing

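In drugs against vehicle, the counts of 6 genes higher and 1 lower stayed within 1.5 times under all 13 alternatives, and 109 of 117 values of single genes kept their direction and side of the threshold; the exceptions were those given for Fcer1g and Hcst. In vehicle against day 0, the 1 gene called lower became 0 with library totals, 3 without the low-count filter and 0 with the 2 groups alone, and 0 to 4 when single libraries were left out. In drugs against day 0, the 1 gene called lower became 2 without the low-count filter and 1 to 3 without single libraries. In vehicle against day 0, signs reversed when single libraries were left out: the log2 change ranged from -0.0947 to 0.2196 for Fcgr2b, from -0.769 to 0.2593 for Fcgrt, from -0.4314 to 0.0333 for Tyrobp, from -0.8176 to 0.2234 for Hcst and from -0.0949 to 0.1631 for Syk. In drugs against day 0, Fcer1g ranged from -0.2552 to 0.2282 without single libraries and was 0.0478 with library totals. The cause was not tested. Among the 6 genes higher in drugs against vehicle, Fcgr4 and Fcgrt passed the low-count filter only through the drug libraries. Their calls are therefore no check under alternatives that keep this filter.

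Over all genes, drugs against vehicle fell from 2041 higher and 1560 lower to 1251 and 582 without drugs replicate 1 and to 1348 and 708 without drugs replicate 2. Vehicle against day 0, with 423 higher and 450 lower, gave 255 and 236 with DESeq2, 1741 and 216 with library totals, 821 and 843 without the filter, 269 and 258 with the 2 groups alone, and 155 to 851 and 196 to 1161 without single libraries. Drugs against day 0 went from 2564 higher to 1667 without drugs replicate 1, and from 2394 lower to 1321 with library totals, 1205 without drugs replicate 1 and 1485 without drugs replicate 2. Library totals moved the median of all genes by 0.12 in vehicle against day 0 and the share of calls that were higher from 48.5% to 89.0% there and from 51.7% to 70.4% in drugs against day 0.

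Same-numbered libraries did not deviate together (correlations 0.08 for drugs and vehicle, -0.20 for vehicle and day 0, -0.06 for drugs and day 0), so the numbers were not taken to pair them. With the replicate block, vehicle against day 0 gave 222 higher and 261 lower genes; among the 9 genes the block ended the Hcst call in drugs against vehicle (1.01, adjusted p = 0.0504) and no other call. With 2 libraries per group and at most 71 counts for Fcgr1, Fcgr4 and Fcgrt, modest changes of these 3 genes were not detectable.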
